A study of Mus musculus with 12 samples.

Results

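The neutrophil granule genes encode the proteins that neutrophils store in their granules, and 10 of them were chosen by name: the primary granule genes Mpo, Elane, Prtn3 and Ctsg, and the later granule genes Ltf, Camp, Ngp, Fcnb, Cd177 and Lcn2. They are 10 of the 35275 genes measured, each symbol matched 1 Ensembl gene, and all 10 passed the filter on low values. RNA had been sequenced from hematopoietic stem cells that were sorted by flow cytometry from C57BL/6 mice, in 4 groups of 3 libraries. The groups were knockout mice (Thpo-/-) given Romiplostim, knockout mice left untreated, wild-type mice (Thpo+/+) given Romiplostim, and wild-type mice left untreated. Thpo encodes thrombopoietin, a cytokine that stem cells and megakaryocytes respond to, and Romiplostim is an agonist of its receptor, given for 10 days at 100 µg/kg per day by intravenous injection. The protocol names PBS for the control mice, whereas their label reads untreated. The ages of the mice, and whether the 3 libraries of a group came from 3 mice, are not given in the sources used here, so that the p-values measure the spread between these libraries, which may be technical in part or, in the knockout groups, in whole. Each wild-type group held libraries with and without Y-linked RNA (values below), so its 3 libraries did not all come from the same mouse.

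Neutrophils make their granules one kind after another while they mature in the bone marrow. The primary, or azurophil, granules are filled in promyelocytes with myeloperoxidase and serine proteases that kill and digest microbes, while the specific and gelatinase granules are filled later, in myelocytes and metamyelocytes, with iron-binding and antimicrobial proteins. RNA of the primary granule genes already appears in granulocyte-monocyte progenitors, whereas RNA of the later granule genes belongs to cells committed to the neutrophil lineage.

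The proximal promoters of these genes are where factors of the ETS family (such as PU.1) and of the C/EBP family act in myeloid cells. All 10 genes matched an entry of the RefSeq promoter table (GRCm38.p6, the 300 bases from 250 before to 50 after the start site). Motifs were searched on both strands. The ETS letters GGAAGT stood in the promoters of 4 of the 4 primary granule genes and 2 of the 6 later ones, Fcnb and Cd177, against 23.8% of 32851 promoters. The C/EBP letters TTGCNNAA stood in 0 of the 4 primary and 4 of the 6 later ones, Ltf, Ngp, Fcnb and Lcn2, against 10.8% of all promoters. The GFI1 letters AATCNNNG stood in 0 of the 10, against 32.1% of all promoters. These matches describe letters in short windows and are no evidence of binding.

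Shown here are the windows of 3 primary genes, since they carry the shared GGAAGT (in capitals), at chr11:87793534-87793833 (Mpo), chr10:79886062-79886361 (Elane) and chr10:79879417-79879716 (Prtn3), all on the plus strand. The match begins 222, 83 and 93 bases before the start site.
Mpo: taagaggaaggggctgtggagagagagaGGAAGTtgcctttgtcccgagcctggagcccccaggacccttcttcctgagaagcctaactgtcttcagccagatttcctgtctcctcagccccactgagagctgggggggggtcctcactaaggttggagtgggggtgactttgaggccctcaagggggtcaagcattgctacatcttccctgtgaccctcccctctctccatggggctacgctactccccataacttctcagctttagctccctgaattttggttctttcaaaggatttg
Elane: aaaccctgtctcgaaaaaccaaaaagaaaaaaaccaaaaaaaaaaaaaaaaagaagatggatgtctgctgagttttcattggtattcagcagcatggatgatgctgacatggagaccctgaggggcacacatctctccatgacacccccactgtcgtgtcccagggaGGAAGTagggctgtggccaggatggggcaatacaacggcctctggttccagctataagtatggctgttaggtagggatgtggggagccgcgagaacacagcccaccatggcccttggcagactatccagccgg
Prtn3: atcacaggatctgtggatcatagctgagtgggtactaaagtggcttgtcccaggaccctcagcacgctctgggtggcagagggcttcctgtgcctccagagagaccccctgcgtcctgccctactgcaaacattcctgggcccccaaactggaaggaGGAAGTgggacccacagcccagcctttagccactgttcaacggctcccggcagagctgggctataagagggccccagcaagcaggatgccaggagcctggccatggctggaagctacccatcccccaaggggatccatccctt
The windows of Ngp (chr9:110419558-110419857, plus strand) and Fcnb (chr2:28084829-28085128, minus strand) are shown because each holds the C/EBP letters at 2 places (in capitals, on either strand), beginning 138 and 11 bases before the start of Ngp and 235 and 123 bases before that of Fcnb. Fcnb also holds GGAAGT at 2 places, left in lower case, and its C/EBP letters overlap neither.
Ngp: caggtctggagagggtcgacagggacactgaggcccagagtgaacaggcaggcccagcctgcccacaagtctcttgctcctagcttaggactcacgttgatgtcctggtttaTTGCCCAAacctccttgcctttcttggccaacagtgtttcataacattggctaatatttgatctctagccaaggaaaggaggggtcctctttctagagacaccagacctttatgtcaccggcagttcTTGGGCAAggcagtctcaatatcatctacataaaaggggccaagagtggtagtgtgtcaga
Fcnb: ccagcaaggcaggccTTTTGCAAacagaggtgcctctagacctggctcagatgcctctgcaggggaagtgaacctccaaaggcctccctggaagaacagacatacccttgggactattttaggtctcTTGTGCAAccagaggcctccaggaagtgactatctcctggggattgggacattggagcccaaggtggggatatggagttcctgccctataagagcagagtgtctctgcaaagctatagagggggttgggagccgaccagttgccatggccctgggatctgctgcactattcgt

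Depth came to 27.7 to 35.6 M fragments per library, and 11262 to 12374 genes reached an FPKM (fragments per kilobase of gene, scaled to library depth) of at least 1. Per the series' design text each group was sequenced in a run of its own, so run and group cannot be told apart. Thpo was listed at 0 in 10 of the 12 libraries and at 0.043 and 0.021 FPKM in treated wild-type replicate 2 and untreated wild-type replicate 3, near the 0.032 to 0.041 FPKM that 3 fragments give, so it does not check the genotype labels. Stem cell markers were present in every group, with a summed level of 12 genes of 456 to 942 FPKM in treated knockout, 263 to 398 in untreated knockout, 1044 to 1175 in treated wild-type and 1243 to 1579 in untreated wild-type libraries. RNA of 4 Y-linked genes averaged 0.005 to 0.039 FPKM in the treated knockout libraries and 11.3 to 24.9 in the untreated knockout libraries. It averaged 0.022, 18.5 and 21.2 FPKM in treated wild-type replicates 1 to 3 and 22.5, 0.137 and 23.2 in untreated wild-type replicates 1 to 3. Within the knockout, Y-linked RNA and treatment therefore cannot be told apart.

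In the sorted cells of untreated knockout mice 9 of the 10 granule genes were higher than in those of untreated wild-type mice. This stands beside 22.1% of all genes, and Prtn3 was the exception. Several lists of markers of other cells were higher there too, and stem cell markers were lower (values below). The part of cells other than stem cells in these differences was not tested. In knockout cells given Romiplostim 8 of the 10 were lower than in untreated knockout cells, beside 18.9% of all genes. With Y-linked RNA, which followed treatment within the knockout, as a covariate 2 of the 10 were. Between treated knockout and treated wild-type cells none of the 10 differed by the test. Only 1.37% of all genes did, so this does not show a return to the wild-type level. The comparisons within the knockout and between the untreated genotypes share the untreated knockout libraries, so their opposite signs are not separate evidence. The scale of every fold change is log2(FPKM + 1), tested with limma across 12823 genes with Benjamini-Hochberg adjustment at 0.05. In bulk RNA such as this, a change in the number of cells of a type and a change in RNA per cell cannot be told apart.

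**Figure D1:**
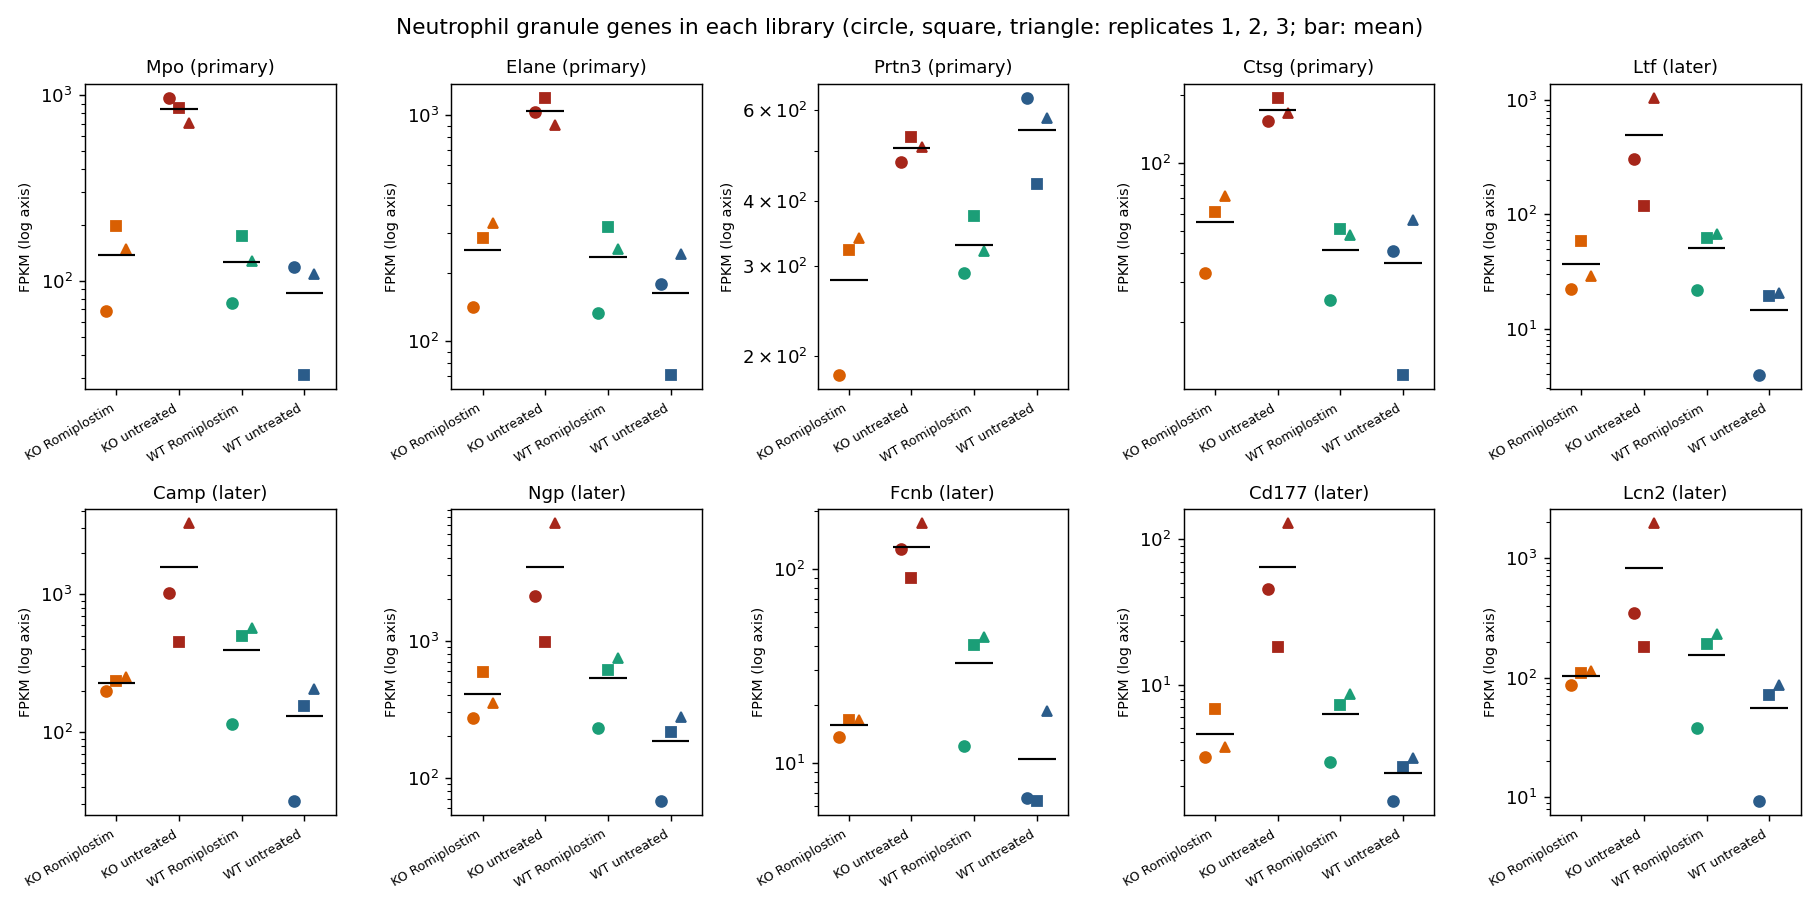
FPKM (log axis) of the 4 primary and 6 later granule genes in each of the 12 libraries, by group, with the mean of each group as a bar. In 9 of the 10 panels the 3 untreated knockout libraries lie above the 3 untreated wild-type ones, and the panel of Prtn3 is the exception.

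Mpo (ENSMUSG00000009350, chromosome 11, 87793581 to 87804413, plus strand, mm10), which encodes myeloperoxidase, the enzyme that makes hypochlorous acid, had 68.5, 197 and 148 FPKM in treated knockout and 969, 849 and 703 in untreated knockout libraries. It had 75.5, 174 and 128 FPKM in treated wild-type and 118, 30.9 and 109 in untreated wild-type libraries. The 3 untreated knockout libraries stood above the other 9 without overlap, while the 3 other groups overlapped. The mean was 840.4 ± 133 FPKM in untreated knockout and 85.9 ± 47.9 in untreated wild-type cells (SD, n = 3 each), a log2 fold change ± SE of 3.48 ± 0.50 (limma adjusted p = 0.000241). Under Romiplostim in the knockout it was lower than in untreated knockout by a log2 fold change of −2.72 ± 0.50 (limma adjusted p = 0.00255). An antisense gene model, Gm11505, shares 512 exon bases with Mpo and was listed at 0 to 0.30 FPKM, and the library kit does not mark strand.

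Elane (ENSMUSG00000020125, chromosome 10, 79886247 to 79888215, plus strand), the gene of neutrophil elastase, had 142, 286 and 334 FPKM in treated knockout, 1037, 1198 and 907 in untreated knockout, 134, 320 and 256 in treated wild-type and 179, 70.7 and 242 in untreated wild-type libraries. As with Mpo, the untreated knockout libraries stood above all others. The untreated knockout exceeded the untreated wild type by a log2 fold change of 2.83 ± 0.45 (limma adjusted p = 0.000461), and the treated knockout was lower than the untreated knockout by −2.12 ± 0.45 (limma adjusted p = 0.00544).

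Ctsg (ENSMUSG00000040314, chromosome 14, 56099881 to 56102574, minus strand) encodes cathepsin G, another serine protease of the primary granules. It had 32.7, 61.2 and 72.0 FPKM in treated knockout, 154, 195 and 168 in untreated knockout, 25.003, 51.3 and 48.2 in treated wild-type and 41.1, 11.6 and 56.0 in untreated wild-type libraries. It was higher in untreated knockout than in untreated wild-type cells (2.47 ± 0.49, limma adjusted p = 0.00171) and lower in treated than in untreated knockout cells (−1.69 ± 0.49, limma adjusted p = 0.0228). The second of these calls is the least stable of the primary genes: it was lost without treated knockout replicate 1, and without untreated knockout replicate 1 or 2, and over 23 alternatives its limma adjusted p ran between 0.00369 and 0.572.

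Prtn3 (ENSMUSG00000057729, chromosome 10, 79874476 to 79883174, plus strand), the gene of proteinase 3, lies 3073 bases before Elane on the same strand and did not follow it. Its level was 184, 322 and 340 FPKM in treated knockout, 477, 533 and 510 in untreated knockout, 290, 375 and 321 in treated wild-type and 635, 431 and 580 in untreated wild-type libraries. Untreated knockout and untreated wild-type libraries overlapped (mean 506 ± 28.4 and 549 ± 106 FPKM), with a log2 fold change of −0.10 ± 0.22 (limma adjusted p = 0.745). Both treated groups lay below both untreated groups without overlap. In the knockout the treated cells were lower by −0.89 ± 0.22 (limma adjusted p = 0.012), and in the wild type by −0.73 ± 0.22, which did not pass the test (limma adjusted p = 0.151, and 0.0281 without treated knockout replicate 1). Prtn3 was also the 1 member of the 10 that differed between treated knockout and untreated wild-type cells (−0.99 ± 0.22, limma adjusted p = 0.0189, the 10 members being read against 7.52% of all genes called lower there), a call lost without untreated wild-type replicate 1 or 3 (limma adjusted p = 0.0654 and 0.0632). Plppr3, an antisense neighbour whose exons share 159 bases with Prtn3, had 11.2 to 31.9 FPKM in treated knockout, 19.8 to 33.8 in untreated knockout, 31.6 to 32.1 in treated wild-type and 49.0 to 90.9 in untreated wild-type libraries, and its part in the value of Prtn3 was not tested.

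Since both genes are read in the same library, their ratio does not depend on library scaling. The ratio of Prtn3 to Elane in FPKM was 1.29, 1.12 and 1.02 in treated knockout, 0.460, 0.445 and 0.562 in untreated knockout, 2.16, 1.17 and 1.25 in treated wild-type and 3.56, 6.10 and 2.40 in untreated wild-type libraries. Untreated knockout and untreated wild-type ratios did not overlap and differed by −2.94 on the log2 scale (exact two-sided permutation test, p = 0.1, the smallest that 3 against 3 libraries can give, and 0.277 after adjustment over 36 tests of 9 ratios). For the ratio of Elane to Mpo the same log2 difference was −0.66, also without overlap (exact permutation p = 0.1).

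**Figure D2:**
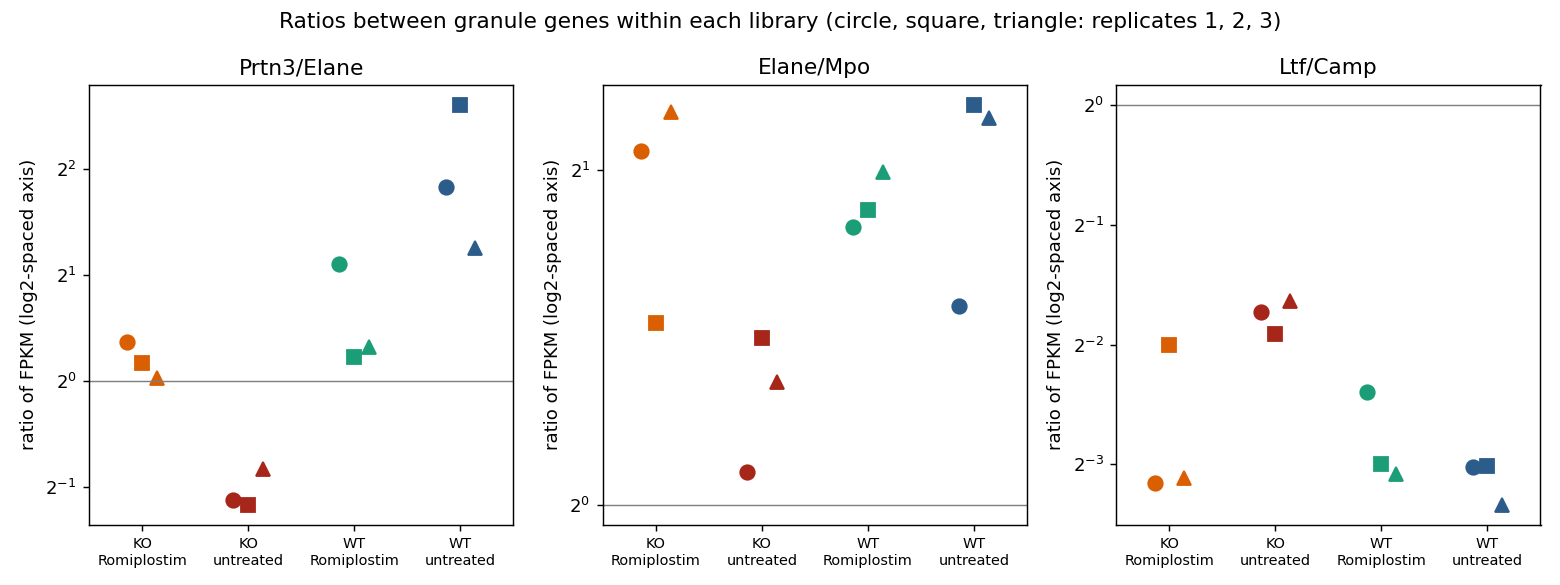
Ratio of FPKM between pairs of granule genes within each library (log2-spaced axis) for Prtn3 to Elane, Elane to Mpo and Ltf to Camp, by group, with replicates as circle, square and triangle. The Prtn3 to Elane ratio is below 1 in the 3 untreated knockout libraries and above 1 in the other 9.

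Ltf (ENSMUSG00000032496, chromosome 9, 111019271 to 111042767, plus strand) encodes lactoferrin, the iron-binding protein of specific granules. It had 22.1, 58.9 and 28.9 FPKM in treated knockout, 307, 119 and 1052 in untreated knockout, 21.8, 62.6 and 67.4 in treated wild-type and 3.90, 19.2 and 20.4 in untreated wild-type libraries. The untreated knockout libraries stood above all others but differed among themselves by up to 8.82-fold, with replicate 3 the highest. The log2 fold change of untreated knockout over untreated wild type was 4.72 ± 0.78 (limma adjusted p = 0.00055), and 3.90 without untreated knockout replicate 3 (limma adjusted p = 0.00164). Treated knockout cells were lower than untreated knockout cells by −3.29 ± 0.78 (limma adjusted p = 0.00891).

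Camp (ENSMUSG00000038357, chromosome 9, 109847379 to 109849617, minus strand), the cathelicidin gene, and Ngp (ENSMUSG00000032484, chromosome 9, 110419747 to 110423012, plus strand), which encodes neutrophilic granule protein, both encode proteins with a cystatin-like domain. Camp had 198, 237 and 250.2 FPKM in treated knockout, 1017, 448 and 3266 in untreated knockout, 115, 500.3 and 568 in treated wild-type and 31.7, 155 and 207 in untreated wild-type libraries. Ngp, the highest of the 10 by its mean in the untreated knockout, had 270.2, 595 and 353 FPKM in treated knockout, 2131, 976 and 7178 in untreated knockout, 232, 608 and 747 in treated wild-type and 67.3, 216 and 276 in untreated wild-type libraries. In both genes untreated knockout and untreated wild type did not overlap, and for Camp 2 of the 3 treated wild-type libraries reached above the lowest untreated knockout library. Camp was higher in untreated knockout than in untreated wild-type cells by 3.49 ± 0.82 (limma adjusted p = 0.00483) and Ngp by 3.94 ± 0.72 (limma adjusted p = 0.00104). Between treated and untreated knockout cells Ngp fell (−2.68 ± 0.72, limma adjusted p = 0.0162) and Camp missed the criterion (−2.32 ± 0.82, limma adjusted p = 0.051). Without untreated knockout replicate 3 the value of Ngp was −1.91 (limma adjusted p = 0.052), no longer past it, and the call was also lost without treated knockout replicate 3 (limma adjusted p = 0.0517). Camp passed without untreated knockout replicate 2, treated wild-type replicate 1 or untreated wild-type replicate 1, with limma adjusted p of at least 0.0209 over 23 alternatives. Without untreated knockout replicate 3 the value of Camp shrank to −1.57 (limma adjusted p = 0.171). With the Y-linked covariate it was −1.93 (limma adjusted p = 0.322).

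The ratio of Ltf to Camp was 0.112, 0.249 and 0.116 in treated knockout, 0.301, 0.266 and 0.322 in untreated knockout, 0.190, 0.125 and 0.119 in treated wild-type and 0.123, 0.124 and 0.0989 in untreated wild-type libraries. It was higher in the untreated knockout than in the other 3 groups without overlap, although within the untreated knockout Ltf spread 8.82-fold and Camp 7.29-fold. Against untreated wild type the log2 difference was 1.37 (exact two-sided permutation test, p = 0.1, the smallest possible, 0.277 adjusted over the 36 tests). For Lcn2 to Camp the same difference was 0.18 (exact permutation p = 0.6) and for Ngp to Camp 0.45 (exact permutation p = 0.2).

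Fcnb (ENSMUSG00000026835, chromosome 2, 28076378 to 28084885, minus strand), the gene of ficolin B, a lectin of the complement system, was the later gene that spread least within the untreated knockout, at 1.92-fold. It had 13.7, 16.6 and 16.7 FPKM in treated knockout, 127, 89.8 and 172 in untreated knockout, 12.2, 40.8 and 44.7 in treated wild-type and 6.62, 6.35 and 18.6 in untreated wild-type libraries. The untreated knockout lay above all others, by 3.62 ± 0.47 over untreated wild type (limma adjusted p = 0.000129), and the treated knockout was lower than the untreated knockout by −2.93 ± 0.47 (limma adjusted p = 0.00116).

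Cd177 (ENSMUSG00000052212, chromosome 7, 24743983 to 24760311, minus strand) encodes a surface glycoprotein of neutrophils that is stored with their specific granules. Its mean FPKM was the lowest of the 10 in every group, and its values were 3.18, 6.76 and 3.70 FPKM in treated knockout, 45.7, 18.2 and 129 in untreated knockout, 2.93, 7.25 and 8.60 in treated wild-type and 1.57, 2.70 and 3.10 in untreated wild-type libraries. The lowest of these values still rested on an estimated 157 fragments. The untreated knockout was higher than the untreated wild type by 3.85 ± 0.57 (limma adjusted p = 0.000269), and the treated knockout was lower than the untreated knockout by −3.19 ± 0.57 (limma adjusted p = 0.002).

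Lcn2 (ENSMUSG00000026822, chromosome 2, 32384633 to 32388252, minus strand), the gene of lipocalin 2, which binds bacterial siderophores, spread most within the untreated knockout, at 10.9-fold. It had 86.5, 108 and 113 FPKM in treated knockout, 350.1, 179 and 1948 in untreated knockout, 37.9, 192 and 230.3 in treated wild-type and 9.30, 71.3 and 86.5 in untreated wild-type libraries. The 2 higher treated wild-type libraries overlapped with untreated knockout replicate 2. Untreated knockout exceeded untreated wild type by 3.63 ± 0.97 (limma adjusted p = 0.00969), and by 2.64 without untreated knockout replicate 3 (limma adjusted p = 0.0379). The difference of treated from untreated knockout did not pass (−2.27 ± 0.97, limma adjusted p = 0.0951). It was −1.29 without untreated knockout replicate 3 (limma adjusted p = 0.314), and passed with the replicate number as a block (limma adjusted p = 0.0368).

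Across the 10 genes, 9 were called higher and 0 lower in untreated knockout against untreated wild type, where 22.1% of all genes tested were called higher and 23% lower. The median log2 fold change of the 10 was 3.55, and that of all genes was −0.03. The 9 genes also had groups that did not overlap, against 27.2% of all genes with the untreated knockout wholly above the untreated wild type. Without untreated knockout replicate 3 the number called was still 9, while the fold changes of Ltf, Camp, Ngp, Cd177 and Lcn2 came down by 1.63 to 1.98-fold. Untreated knockout and the untreated wild-type replicates 1 and 3 all carried Y-linked RNA, and among these Mpo had 703 to 969 FPKM in the knockout and 118 and 109 FPKM in the wild type. These values of 1 gene are a description, and the part of Y-linked RNA was not tested with them. With the level of Y-linked RNA as a covariate, 9 of the 10 were again called.

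For treated against untreated knockout cells, 8 of the 10 were called lower and 0 higher, beside 18.9% of all genes called lower and 10.7% called higher. The median of the 10 was −2.50, and that of all genes was −0.09. All 10 genes had an unadjusted p under 0.05, and in all 10 the treated knockout lay wholly below the untreated knockout, as it did for 24.7% of all genes. With the Y-linked covariate 2 of the 10 passed, Fcnb (−1.90, limma adjusted p = 0.042) and Cd177 (−2.96, limma adjusted p = 0.0483), and the value of Mpo was −1.47 (limma adjusted p = 0.0777). Within the knockout the covariate followed treatment, so its slope rests mainly on the wild-type groups, each with a library lacking Y-linked RNA. The covariate values of the knockout, here and in the interaction, carry that slope over. The part of Y-linked RNA in the difference cannot be told apart from that of treatment within the knockout libraries.

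**Figure D3:**
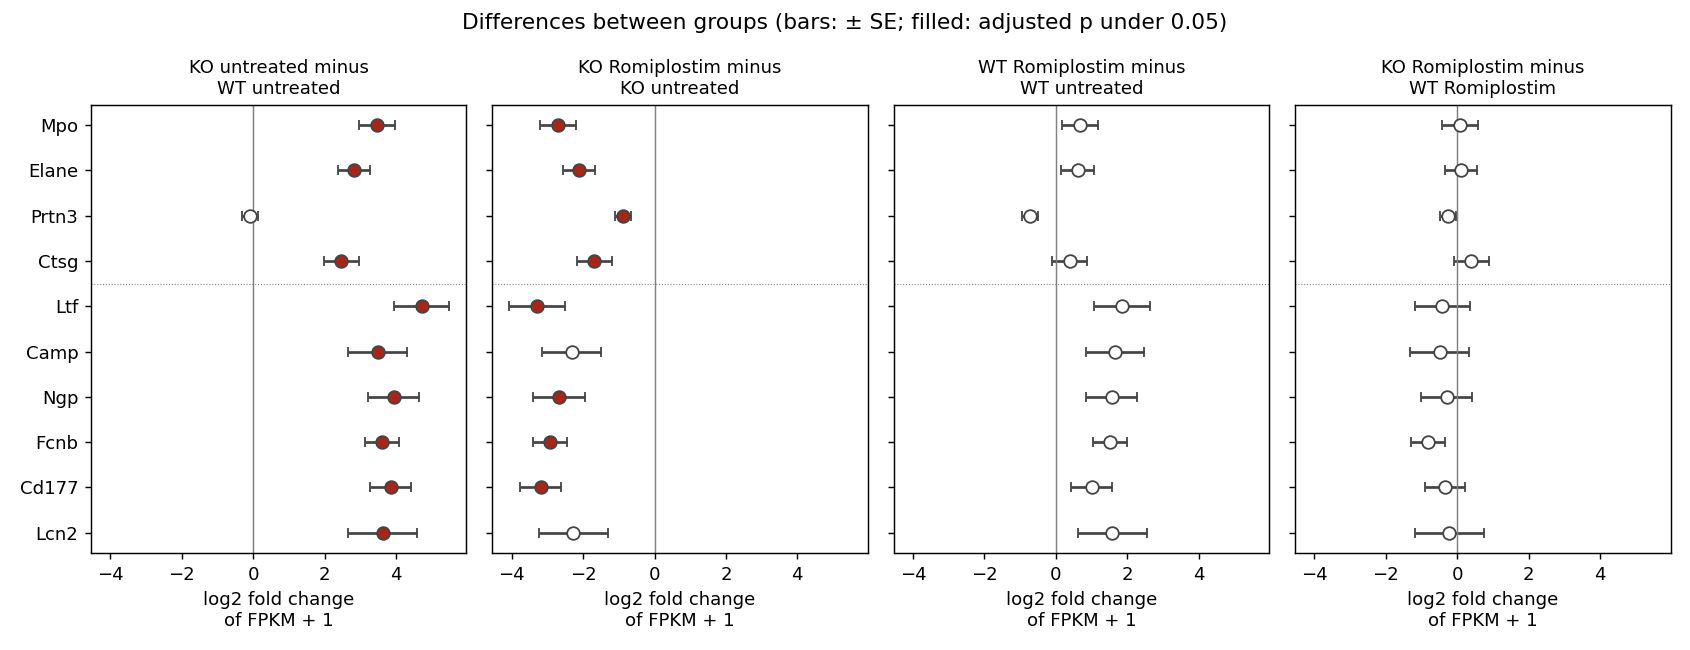
Log2 fold change of FPKM + 1 with its SE for each granule gene in 4 comparisons, filled where the limma adjusted p is under 0.05. In the first panel 9 of 10 points are filled on the right, in the second 8 of 10 on the left, and in the other 2 panels none is filled.

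In wild-type cells none of the 10 genes passed between Romiplostim and no treatment with libraries taken as unpaired (limma, 3 with an unadjusted p under 0.05), where 1.84% of all genes were called. The 6 later genes had log2 fold changes of 0.9985 to 1.85 with a median of 1.57, Ltf being the highest (1.85 ± 0.78, limma adjusted p = 0.325) and Fcnb the one with the smallest p (1.51 ± 0.47, limma adjusted p = 0.159). Without treated wild-type replicate 1, Fcnb passed (limma adjusted p = 0.0397). Deviations from the group means correlated at 0.403, 0.123 and 0.383 between same-numbered treated and untreated wild-type libraries (pairs 1 to 3). Treated replicate 3 with untreated replicate 2 also gave 0.123, so pair 2 is not set apart. Within these 3 pairs each of the 6 later genes was higher in the treated library, Camp by 2.75 to 3.62-fold and Ngp by 2.71 to 3.44-fold. In pairs 1 and 2 the treated and the untreated library differed in Y-linked RNA (0.022 against 22.5 FPKM, and 18.5 against 0.137 FPKM). With the pair as a block in a fit of the 6 wild-type libraries alone, chosen after seeing the data, 5 of the 10 genes were called higher, where 3.06% of all genes were. They were Camp (limma adjusted p = 0.00767), Ngp (limma adjusted p = 0.00869), Ltf (limma adjusted p = 0.0128), Lcn2 (limma adjusted p = 0.0136) and Cd177 (limma adjusted p = 0.038), and Fcnb missed the criterion (limma adjusted p = 0.0688). With the same block in the fit of all 12 libraries 0 of the 10 passed (limma), Fcnb being the nearest (limma adjusted p = 0.0584). Mpo, Elane and Ctsg had values of 0.68 ± 0.50, 0.61 ± 0.45 and 0.38 ± 0.49. The lowest libraries of Mpo, Elane and Ctsg were treated wild-type replicate 1 and untreated wild-type replicate 2, the libraries of their groups without Y-linked RNA, and the part of this in the result was not tested.

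Treated knockout and treated wild-type cells were compared to ask whether the genotypes still differed under the agonist. None of the 10 genes was called (limma, 0 with an unadjusted p under 0.05, adjusted p 0.351 to 0.946), and 1.37% of all genes were. The log2 fold changes were 0.08 ± 0.50 for Mpo, 0.10 ± 0.45 for Elane and −0.82 ± 0.47 for Fcnb, the largest of the 10 in size. With standard errors of this size the test does not show that the levels were alike. All 3 treated knockout libraries lacked Y-linked RNA and 2 of the 3 treated wild-type libraries had it. Among the libraries that lacked it, Mpo had 68.5 to 197 FPKM in the treated knockout, against 75.5 in treated wild-type replicate 1 and 30.9 in untreated wild-type replicate 2. The part of Y-linked RNA in this comparison was not tested.

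The effect of Romiplostim in the knockout minus that in the wild type was called lower for 7 of the 10 genes and higher for none, with 10% of all genes called lower. The 7 were Mpo, Elane, Ltf, Camp, Ngp, Fcnb and Cd177, with log2 differences of −5.14 (Ltf, limma adjusted p = 0.0116) to −2.73 (Elane, limma adjusted p = 0.0169). Fcnb had the smallest adjusted p (−4.44 ± 0.67, limma adjusted p = 0.00296). Ctsg (−2.07, limma adjusted p = 0.0627), Lcn2 (−3.85, limma adjusted p = 0.0777) and Prtn3 (−0.16, limma adjusted p = 0.759) did not pass. With the Y-linked covariate 1 of the 10 passed, Fcnb. Without untreated wild-type replicate 3 Ctsg passed (−2.51, limma adjusted p = 0.0367). The call of Camp (limma adjusted p = 0.039) was lost under 11 of 22 alternatives, among them leaving out treated knockout replicate 1 or 3, untreated knockout replicate 1 or 3, treated wild-type replicate 2 or 3, or untreated wild-type replicate 1 or 2.

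The primary and later genes differed in how far the libraries of a group spread. In the untreated knockout the highest library exceeded the lowest by 1.12 to 1.38-fold in the 4 primary genes and by 1.92 to 10.9-fold in the 6 later ones, while the median over 7938 expressed genes was 1.24-fold. In the untreated wild type the spread was 1.47 to 4.85-fold for the primary and 1.98 to 9.31-fold for the later genes (median of all 1.28-fold). In treated knockout libraries it was 1.85 to 2.87-fold and 1.22 to 2.66-fold, and in treated wild-type libraries 1.29 to 2.38-fold and 2.93 to 6.08-fold.

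The level of a set, its mean log2(FPKM + 1), was 7.18 ± 0.62 in treated knockout, 9.04 ± 0.12 in untreated knockout, 7.10 ± 0.49 in treated wild-type and 6.87 ± 0.85 in untreated wild-type libraries for the primary genes (SD, n = 3 each). For the later genes it was 5.78 ± 0.35 in treated knockout, 8.56 ± 1.34 in untreated knockout, 6.22 ± 1.03 in treated wild-type and 4.69 ± 1.04 in untreated wild-type libraries. The primary level minus the later level was 1.03, 1.37 and 1.79 in treated knockout, 0.64, 1.84 and −1.07 in untreated knockout, 1.52, 0.80 and 0.34 in treated wild-type and 3.76, 0.84 and 1.93 in untreated wild-type libraries. Untreated knockout replicate 3 was the 1 library of the 12 in which the later genes stood above the primary ones. The 10 genes together took 0.118 to 0.234% of all FPKM in treated knockout, 0.598 to 1.96% in untreated knockout, 0.115 to 0.290% in treated wild-type and 0.124 to 0.195% in untreated wild-type libraries.

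**Figure D4:**
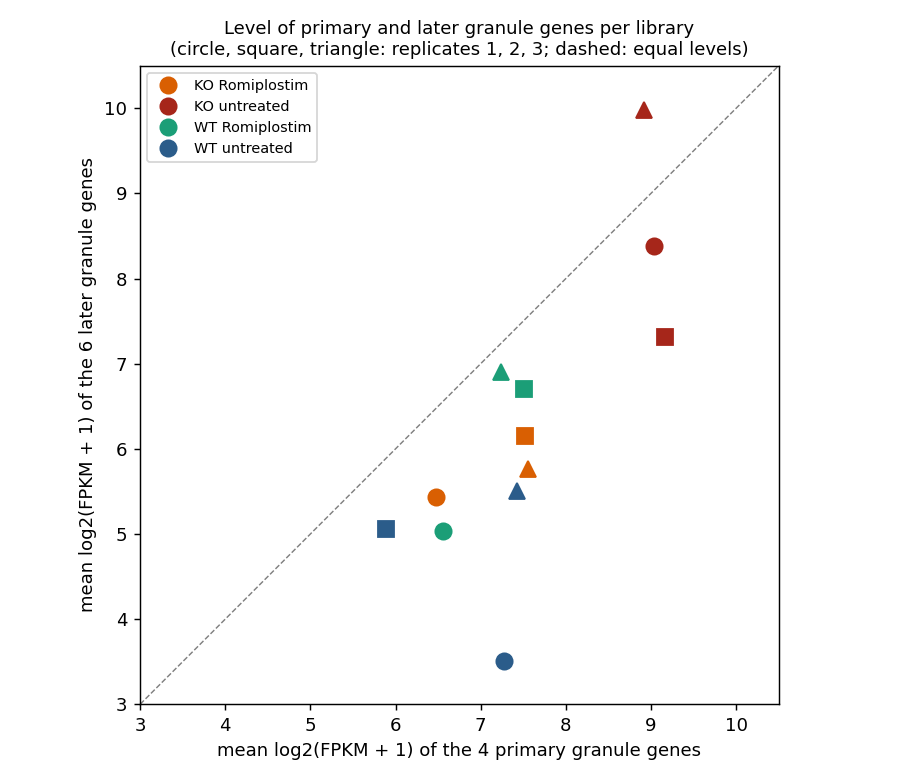
Mean log2(FPKM + 1) of the 4 primary granule genes (horizontal) and the 6 later granule genes (vertical) in each of the 12 libraries, with a dashed line where both are equal. Only untreated knockout replicate 3 lies above the line, and the 3 untreated knockout libraries are the 3 farthest to the right.

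Over the 12 libraries the later genes moved together, with Pearson correlations of 0.87 to 0.998 among the 15 pairs (median 0.95). Mpo, Elane and Ctsg correlated at 0.97 to 0.99 with one another and at 0.63 to 0.91 with the later genes. Prtn3 correlated at 0.38 to 0.41 with the other primary genes and at 0.03 to 0.27 with the later ones. The libraries share their group structure and their sorted source, so these values are a description.

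Among 9051 other genes with a mean of at least 5 FPKM in some group, the 5 whose pattern over the 12 libraries was most like the primary level were Ms4a3 (Pearson r = 0.98), a gene of granulocyte-monocyte progenitors, Cldn15 (0.97), Igsf6 (0.95), Atp8b4 (0.94) and Trem3 (0.93). Ms4a3 averaged 31.4 FPKM in treated knockout, 121 in untreated knockout, 37.5 in treated wild-type and 25.9 in untreated wild-type cells. The 5 most like the later level were the chitinase-like genes Chil3 (0.99) and Chil1 (0.99), Mcemp1 (0.98), Orm1 (0.98) and Ncf1 (0.98), a subunit gene of the phagocyte oxidase. Chil3 averaged 205 FPKM in treated knockout, 1169 in untreated knockout, 215 in treated wild-type and 91.3 in untreated wild-type cells.

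Genes of the same stage of neutrophil maturation that are not among the 10 were described from other lists. Of 11 tested genes listed for promyelocytes, 7 were higher and 2 lower in untreated knockout than in untreated wild-type cells (median 0.86 on the log2 scale), where 22.1% of all genes were called higher and 23% lower. Hp, the haptoglobin gene (3.84 ± 0.44), Cst7, the gene of cystatin F (2.48 ± 0.33), Ms4a3 (2.37 ± 0.43) and the serine protease gene Prss57 (1.12 ± 0.20) rose. Hp had 134, 165 and 447 FPKM in untreated knockout replicates 1 to 3, highest in replicate 3 as the later granule genes were. The 2 that were lower, named after their values were seen, were Srgn, the gene of the granule proteoglycan serglycin (−0.99 ± 0.22), and Gstm1, a glutathione transferase gene (−0.94 ± 0.27). Between treated and untreated knockout 6 of the 11 were lower and 2 higher, beside 18.9% and 10.7% of all genes, so that the smaller count in each comparison is near the share of all genes.

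Of 12 tested genes of later granules outside the 10, 11 were higher and 0 lower in untreated knockout than in untreated wild-type cells (median 2.72), among them Cybb, the catalytic subunit gene of the phagocyte oxidase (4.49 ± 0.46), Chil3 (3.55 ± 0.65), Hsd11b1 (3.46 ± 0.45) and the integrin chain gene Itgb2 (2.21 ± 0.25). In treated against untreated knockout cells 9 of these 12 were lower and 0 higher. Of all genes tested, 22.1% were called higher between the untreated groups, and 18.9% were called lower between treated and untreated knockout. Of 14 tested genes of mature neutrophils 12 were higher and 0 lower (median 2.63), among them the formyl peptide receptor gene Fpr1 (4.22 ± 0.24), Trem3 (2.89 ± 0.39), G0s2 (2.08 ± 0.34) and Trem1 (1.72 ± 0.24), and 8 of the 14 were lower and 0 higher in treated than in untreated knockout cells. These counts stand beside the same 22.1% and 18.9% of all genes. Named after their values were seen, Csf3r (−0.66 ± 0.29, limma adjusted p = 0.0872) and Clec4d (0.51 ± 0.36, limma adjusted p = 0.264) were not called between the untreated groups. Csf3r had 28.8, 24.0 and 25.2 FPKM in untreated knockout and 51.9, 25.7 and 53.3 in untreated wild-type libraries. Untreated knockout replicate 3 held the highest levels of S100a8 (14308 FPKM), Retnlg (662 FPKM) and Ly6g (132 FPKM) of all libraries, mature genes named after their values were seen. Fpr1 did not share this, with 24.96, 27.1 and 24.0 FPKM in untreated knockout replicates 1 to 3. The summed level of the 16 listed mature neutrophil genes was 1770 to 2958 FPKM in treated knockout, 3745 to 28640 in untreated knockout, 808 to 4469 in treated wild-type and 399 to 2285 in untreated wild-type libraries, with no gene at 0 throughout a group, and its part in the granule gene results was not tested.

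Of 9 tested regulators of granulocytes, 3 were higher and 0 lower in untreated knockout than in untreated wild-type cells (median 0.66), a count not far from the 22.1% of all genes called higher. They were Irf8, a factor of monocyte and dendritic cell fate (3.51 ± 0.29), Cebpe, which the later granule genes need for their transcription (2.59 ± 0.35), and Klf5 (0.94 ± 0.28). Cebpe had 1.95, 2.52 and 2.47 FPKM in treated knockout, 12.8, 8.12 and 24.3 in untreated knockout, 1.44, 3.83 and 3.58 in treated wild-type and 1.01, 1.38 and 2.05 in untreated wild-type libraries, with the untreated knockout above all others. Between treated and untreated knockout cells 4 of the 9 were lower and 0 higher, where 18.9% of all genes were called lower. Cebpe was lower there by −2.15 ± 0.35 (limma adjusted p = 0.00118). Runx1, the fourth by p in the comparison of untreated groups, had a value of −0.38 ± 0.15 (limma adjusted p = 0.0571).

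Markers of other cells moved in the same comparisons. Of the genes tested, 13 of 14 monocyte and macrophage, 9 of 9 B cell, 8 of 8 erythroid, 6 of 7 T and NK cell and 6 of 6 stromal and endothelial markers were higher in untreated knockout than in untreated wild-type cells, and 11 of 12 stem cell markers were lower, beside 22.1% of all genes called higher and 23% called lower. Summed macrophage markers came to 76.6 to 158 FPKM in treated knockout, 964 to 2526 in untreated knockout, 67.6 to 83.4 in treated wild-type and 82.1 to 86.6 in untreated wild-type libraries. Summed B cell markers came to 95.4 to 650.3 FPKM in treated knockout, 1692 to 4209 in untreated knockout, 67.2 to 70.3 in treated wild-type and 86.5 to 98.4 in untreated wild-type libraries, with Pax5 at 0 in all 3 treated wild-type libraries. Summed erythroid markers came to 797 to 6662 FPKM in treated knockout, 2685 to 3098 in untreated knockout, 44.8 to 54.4 in treated wild-type and 164 to 233 in untreated wild-type libraries, so that the erythroid level was high in both knockout groups. C1qb, a macrophage gene, had 469, 744 and 236 FPKM in untreated knockout replicates 1 to 3, the lowest in replicate 3, where the later granule genes were highest. The part of these cells in the granule gene results was not tested. With treated knockout replicate 2 and untreated knockout replicate 3 both left out, 9 of the 10 granule genes were called higher in untreated knockout than in untreated wild-type cells and 7 lower in treated than in untreated knockout cells.

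**Figure D5:**
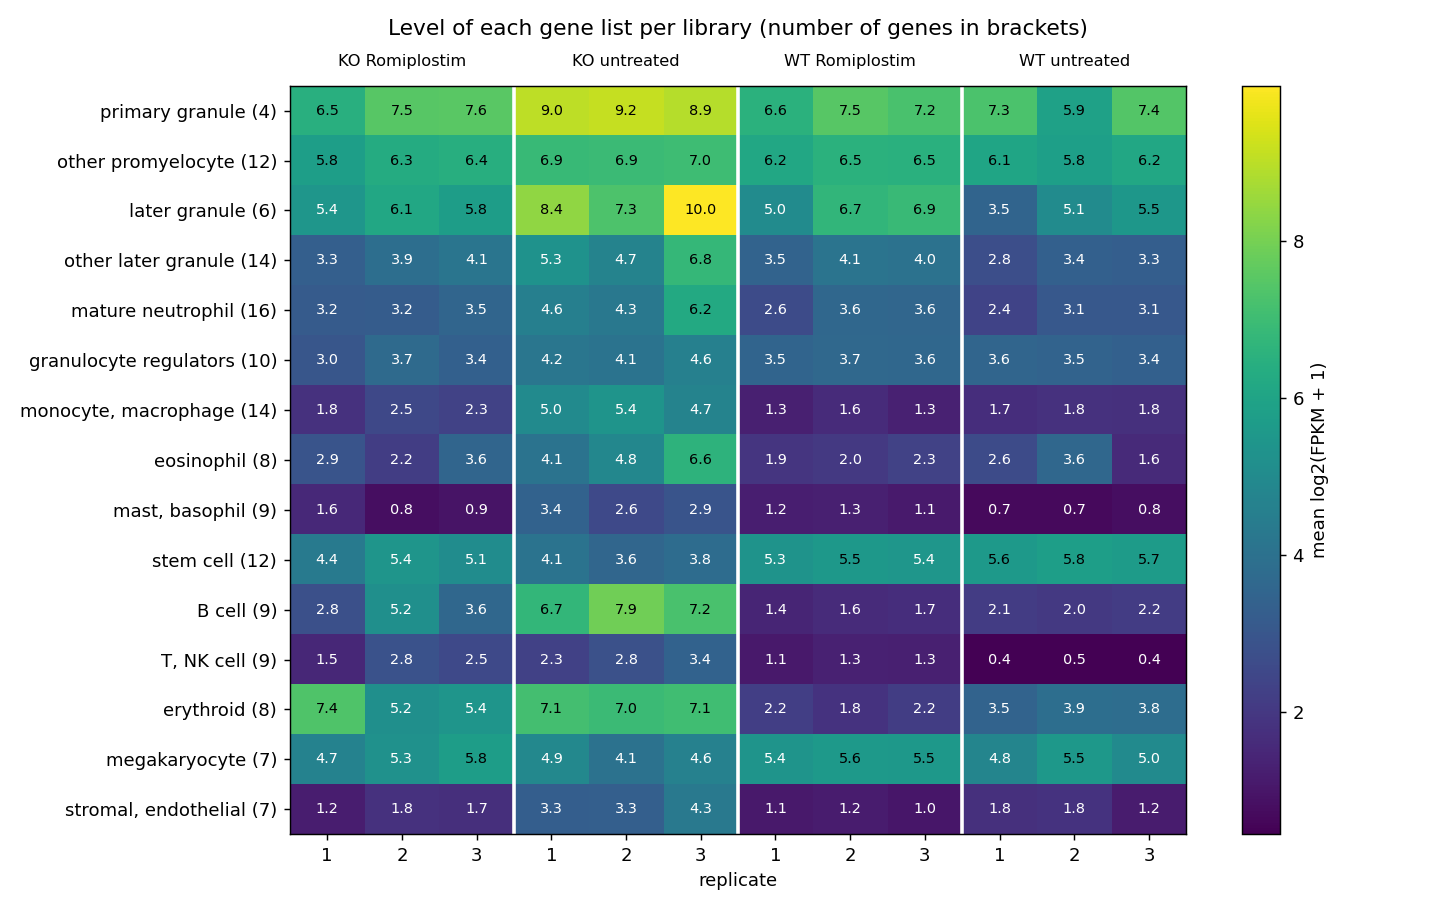
Mean log2(FPKM + 1) of each gene list (rows, number of genes in brackets) in each library (columns, replicates 1 to 3 of the 4 groups). Both granule lists are highest in the untreated knockout columns, as are the macrophage and B cell lists, and the stem cell list is lowest there.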

How the data were processed

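RNA of 12 libraries was measured, from cDNA amplified without marking of strand and read as pairs, per the labels' protocols. The authors deposited 1 table of FPKM values, and the submitters' processing notes name TopHat2, Cufflinks 2.2.1 and mm10 but give no roles. Of the 35275 gene identifiers, 34490 matched a symbol of GENCODE M21. Depth was recovered from the steps of low FPKM values of genes with 1 transcript, 85.1 to 90.0% of which were whole within 0.05 fragments. Depths, and the floor of 3 fragments, are estimates that cover counting error only.

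Values were tested as log2(FPKM + 1) in limma 3.58.1 under R 4.3.3, using a trend of variance with intensity and 1 fit of all 12 libraries. Genes entered where 3 or more libraries had an FPKM of 1 or more, with two-sided tests and Benjamini-Hochberg adjustment over all 12823 genes within each of 6 contrasts at 0.05. The log2 scale understates changes of low genes. The limma script was tested on simulated data. Motifs were searched on both strands of the RefSeq promoter table. Named genes were the 10 members, up to 4 genes of each other list by smallest p between the untreated groups, and the 5 genes most like each level by Pearson r. Same-numbered treated and untreated wild-type libraries were taken as pairs from the data, since their deviations from the group means correlated at 0.403, 0.123 and 0.383. The labels do not state a pairing, and the blocked fits of the wild type were added after seeing the data. A few genes outside the rule are marked where named. Members, lists and rules were chosen with earlier results of these data known. Alternatives changed the pseudocount, filter, scaling, weights, trend, libraries in the fit, a replicate block and a Y-linked covariate. Proteins were not analysed here.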

Additional observations from a re-analysis of the deposited data

Results flagged for a closer look

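The effect of Romiplostim in the knockout differed from that in the wild type, by the interaction term of the limma fit, for 7 of the 10 granule genes. The log2 effect in the knockout minus that in the wild type was −3.40 for Mpo and −2.73 for Elane among the primary granule genes. Among the later granule genes it was −5.14 for Ltf, −3.98 for Camp, −4.24 for Ngp, −4.44 for Fcnb and −4.19 for Cd177. In each of these genes the effect was negative in the knockout and positive in the wild type. With libraries unpaired the effect in the wild type passed the test in none of them (limma). With the wild-type pairs, chosen after seeing the data, as a block in a fit of the wild type alone, it passed in Ltf, Camp, Ngp and Cd177. With the same block in the fit of all 12 libraries 0 of the 10 genes passed (limma). The blocked calls rest on a pairing taken from the same values, so they are not separate evidence. The 3 untreated knockout libraries all carried Y-linked RNA and the 3 treated knockout libraries did not, and with that level as a covariate the interaction passed for Fcnb alone (−3.43, limma adjusted p = 0.0231).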

How the results depend on the processing

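The 9 granule genes called higher in untreated knockout than in untreated wild type were called in the same direction under all 23 alternatives. Members called lower between treated and untreated knockout numbered 7 to 9 without 1 library each, and 2 with the Y-linked covariate. Members called in the interaction numbered 6 to 8 without 1 library each, and 1 with the covariate. Between treated and untreated wild type 3 members passed with library quality weights and 0 to 1 without 1 library each. With the wild-type pairs as a block, chosen after seeing the data, 5 passed in a fit of the wild type alone and 0 in the fit of all 12 libraries. Between treated knockout and untreated wild type 2 passed with the covariate (Elane and Ctsg, both higher), 0 with only the libraries compared, and 0 to 1 without 1 library each. Between treated knockout and treated wild type 0 passed without any 1 library.

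Small uncalled values turned sign. Prtn3 between the untreated groups was 0.036 with quantile normalization and −0.26 to 0.017 without 1 library each, and its interaction was 0.16 with the covariate and −0.33 to 0.12 without 1 library. Ctsg between treated and untreated wild type was −0.27 to 0.82 without 1 library. Between treated knockout and treated wild type, Lcn2 was 0.0098 with the covariate, and Mpo −0.24 and Elane −0.027 without treated knockout replicate 2 and untreated knockout replicate 3 (below, the 2 libraries). Without 1 library each, the values of that comparison ran as −0.24 to 0.52 for Mpo, −0.26 to 0.47 for Elane, −0.42 to 0.019 for Prtn3, −0.81 to 0.033 for Ngp and −1.04 to 0.25 for Lcn2. The cause was not tested.

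Counts over all genes moved more. Between treated knockout and treated wild type 176 genes were called, with 326 at a pseudocount of 0.1, 57 with no filter, 270 with quantile normalization, 1712 with weights, 28 with the covariate, 1755 without the 2 libraries, 57 with only the libraries compared and 30 to 1565 without 1 library. Between treated and untreated wild type 236 became 122 with a filter at 5 FPKM, 1755 with weights, 434 without the 2 libraries, 628 with only the libraries compared, 864 with the pairs as a block in the wild type alone and 62 to 467 without 1 library. Between treated knockout and untreated wild type 1340 became 883 with the filter at 5 FPKM, 2309 with weights, 223 with the covariate, 3106 without the 2 libraries, 280 with only the libraries compared and 641 to 2850 without 1 library. The interaction called 1996, with 4671 under weights, 487 under the covariate and 1093 to 2687 without 1 library. Between treated and untreated knockout 3797 became 1059 with the covariate, 2021 with only the libraries compared and 2214 to 4305 without 1 library. Between the untreated groups 5779 became 4560 to 6299 without 1 library. The share of calls that were higher moved from 36.3% to 58.2% between treated and untreated knockout and from 35.5% to 55.5% in the interaction under quantile normalization. Under median-of-ratios scaling it was 47.4% between treated and untreated knockout, and 45.9% against 28.1% between treated knockout and untreated wild type. The level of the primary genes in untreated knockout was 9.22 under quantile normalization, against 9.04.

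Same-numbered libraries had correlations of −0.19 to 0.40 over 18 pairs, 6 of them over 0.1. Among these were all 3 pairs of treated and untreated wild type (0.12 to 0.40), and no other combination of groups had all of its pairs over 0.1. Differently numbered libraries had correlations of −0.36 to 0.32. With the replicate number as a block, 9 members were called between the untreated groups, 10 between treated and untreated knockout and 8 in the interaction, and 5 of the 12 libraries correlated best with their own number. The interaction has no value with only the libraries compared. The outlier test needs 4 libraries and was not run. Each group had 3 libraries, the groups were set in separate runs, and Y-linked RNA followed treatment within the knockout. The lowest value of the granule genes rested on an estimated 157 fragments, and the part of depth in the results was not tested.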

Other observations

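Genes of eosinophils, mast cells and basophils moved in the untreated knockout as well. Of 8 eosinophil genes tested, 5 were higher and 0 lower in untreated knockout than in untreated wild-type cells, with a median log2 fold change of 2.46, where 22.1% of all genes were called higher. Epx, the gene of eosinophil peroxidase, had 2.73 ± 0.90 (limma adjusted p = 0.027), the granule ribonuclease gene Ear2 3.15 ± 0.65 and the eotaxin receptor gene Ccr3 4.14 ± 0.35. In treated against untreated knockout cells 5 of the 8 were lower and 0 higher, where 18.9% of all genes were called lower. Of 7 tested mast cell and basophil genes 7 were higher in untreated knockout than in untreated wild-type cells, beside the same 22.1% of all genes. Among them were Cpa3, the gene of carboxypeptidase A3 (1.88 ± 0.18), and the granule protease gene Mcpt8 (3.33 ± 0.92). Mcpt8 varied between the untreated knockout libraries, at 13.3, 1.53 and 41.9 FPKM. The summed level of all 9 listed mast cell and basophil genes, with the untested Cma1 and Tpsb2, was 10.8 to 29.9 FPKM in treated knockout, 83.8 to 177 in untreated knockout, 13.7 to 16.4 in treated wild-type and 9.001 to 11.02 in untreated wild-type libraries.

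Of 7 megakaryocyte genes 2 were lower and 0 higher in untreated knockout than in untreated wild-type cells, Vwf (−1.60 ± 0.28) and Selp (−1.79 ± 0.44), both of which encode adhesion proteins of platelet granules, where 23% of all genes were called lower, so that the count is near that share. Cfd, the gene of complement factor D and the neighbour of Elane, was named after its values were seen and had 0.16, 0.061 and 0.55 FPKM in treated knockout, 2.90, 1.96 and 11.9 in untreated knockout, 0.11, 0.076 and 0.10 in treated wild-type and 0.12, 0.037 and 0.075 in untreated wild-type libraries.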
